A study of Mus musculus with 24 samples.

Results

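Interferon-stimulated genes are the antiviral program that cells switch on when they sense interferon, and 39 of them were followed here through sorted vessel cells of normal mouse hindbrain and of 2 kinds of medulloblastoma. They are a list of symbols drawn up with earlier results of these data known, and their probe sets were found by symbol in the annotation of the array. Of the 39, 36 had a probe set that carries their symbol alone and were measured, among 22180 genes measured in this way. The 3 others were not measured on their own, since the probe set of Dtx3l is shared with Parp9 and that of Gbp2 with Gbp2b, and no probe set was named for Ifi44 by itself. Ifi35 had 2 probe sets, and the one with the higher mean was used.

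Type I interferons bind the receptor formed by Ifnar1 and Ifnar2, which activates the kinases Jak1 and Tyk2. The signal passes to a complex that contains Stat2 and Irf9 and binds the interferon-stimulated response element (ISRE) in promoters, while interferon gamma acts at the gamma-activated sequence (GAS). The products bind or degrade viral RNA, restrict virus assembly, attach the ubiquitin-like protein Isg15 to other proteins and attack the vacuoles of intracellular microbes. Many of these genes have some expression without infection, and brain endothelium and microglia both respond to interferon.

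The arrays hold 3 groups of 8, all from mice of mixed strain background. The hindbrain group came from wild-type adult animals. The Shh group came from medulloblastomas, which are tumours of the hindbrain, that arose in Ptch+/- mice that were also Ink4c-/-. The Wnt group came from tumours of mice with Blbp-Cre, the Ctnnb1 +/Exon3 flox allele, Trp53 flox/flox and Pik3ca +/flox, with ages of the tumour mice not given in the sources used here. Blbp is active in neural progenitors, so that Cre was directed at those, whereas the Ptch and Ink4c alleles were present in the whole animal, its vessels included. Tumour and genotype cannot be told apart, because the tumour mice carried alleles that the hindbrain mice did not. In every group the tissue was digested with papain and cells were taken on magnetic beads through Cd105 and Cd144, surface proteins of endothelium. The comparison asks how gene expression of vessel cells differs with the tissue around them.

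The promoters of the members with the largest falls in Wnt against hindbrain, and of 2 that illustrate the other motif or the lack of change, are printed here from RefSeq on the GRCm38.p6 build. Each window holds 300 bases, from 250 before the annotated start to 50 after it. Gbp5, Ifit1 and Gbp3 had the largest falls in Wnt arrays among members with an ISRE core (GAAA, any pair of bases and GAAA again, here read as its reverse complement), and capitals mark each match to it or to the GAS letters (TTCNNNGAA). Irf1 carries the GAS, and Ifit2 had the highest Wnt minus hindbrain value of all 36 members.
Gbp5 (chr3:142496684-142496983, plus strand): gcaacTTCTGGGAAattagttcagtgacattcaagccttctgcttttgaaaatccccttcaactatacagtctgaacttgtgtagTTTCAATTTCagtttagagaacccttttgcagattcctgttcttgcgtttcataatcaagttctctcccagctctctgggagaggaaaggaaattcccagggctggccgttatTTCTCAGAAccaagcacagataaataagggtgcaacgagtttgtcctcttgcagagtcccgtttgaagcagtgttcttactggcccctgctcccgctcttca
Ifit1 (chr19:34640639-34640938, plus strand): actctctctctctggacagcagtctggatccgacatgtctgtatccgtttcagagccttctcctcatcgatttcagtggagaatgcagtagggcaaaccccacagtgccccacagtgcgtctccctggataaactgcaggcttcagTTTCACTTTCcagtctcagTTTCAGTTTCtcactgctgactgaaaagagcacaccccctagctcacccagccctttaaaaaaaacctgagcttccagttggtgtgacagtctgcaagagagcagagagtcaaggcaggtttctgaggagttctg
Gbp3 (chr3:142559794-142560093, plus strand): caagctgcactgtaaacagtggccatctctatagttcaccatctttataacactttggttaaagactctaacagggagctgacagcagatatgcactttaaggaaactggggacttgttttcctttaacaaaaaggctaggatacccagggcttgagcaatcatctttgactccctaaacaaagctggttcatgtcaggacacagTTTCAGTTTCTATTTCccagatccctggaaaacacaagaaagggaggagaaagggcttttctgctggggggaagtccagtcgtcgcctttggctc
Irf1 (chr11:53769764-53770063, plus strand): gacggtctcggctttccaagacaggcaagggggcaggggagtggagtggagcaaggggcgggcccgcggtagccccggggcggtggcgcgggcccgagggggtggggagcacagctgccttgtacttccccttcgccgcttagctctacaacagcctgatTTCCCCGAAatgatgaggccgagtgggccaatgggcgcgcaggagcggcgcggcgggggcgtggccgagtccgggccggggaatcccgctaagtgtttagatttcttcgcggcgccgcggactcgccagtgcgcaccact
Ifit2 (chr19:34550444-34550743, plus strand): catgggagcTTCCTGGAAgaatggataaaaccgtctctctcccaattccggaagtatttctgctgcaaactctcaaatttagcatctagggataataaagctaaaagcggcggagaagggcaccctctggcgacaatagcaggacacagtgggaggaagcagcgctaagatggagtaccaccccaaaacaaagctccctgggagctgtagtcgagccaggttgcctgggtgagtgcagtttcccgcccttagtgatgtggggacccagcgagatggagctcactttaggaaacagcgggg

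Both motifs were searched on both strands of the windows of 27 members that RefSeq lists, and overlapping matches were counted. The ISRE core was present for 15 of 27 members (55.6%), against 3.87% of 16990 array genes and 3.44% of all 32851 windows. The GAS letters were present for 10 of 27 members (37%), against 9.15% of array genes and 8.3% of all windows. Isg15 held 3 matches to the ISRE core, and Ifit1, Ifit3, Bst2, Gbp3 and Irgm1 held 2 each. The printed Ifit2 window holds no ISRE core, and its other listed window holds neither motif. A match is a description of the letters, and its absence says only that these letters are not in the window. Oas3, called in no comparison, and Eif2ak2, called lower only in Wnt against hindbrain, hold an ISRE core too. Their groups overlapped in every comparison, as did those of other members with a core, such as Isg15 and Bst2.

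Values are log2 signals as deposited, and a value after ± is the standard error of a difference unless SD is written. Differences were tested with limma over all 22180 genes, and a two-sided p under 0.05 after Benjamini-Hochberg adjustment counted as a call. All groups shared a single estimate of the spread for each gene. Leaving out an array of any group can thus change a call between the others without changing their difference. The array medians lay between 5.97 and 6.18. ERCC control probe sets, which match no mouse gene, had means with a 95th percentile of 5.24, and values at or below it are read as dim. Of 36 members, 1 was dim in hindbrain and in Shh (Mx1) and 2 in Wnt arrays (Mx1 and Isg15). All 16 endothelial markers were above that level in every group, and their average was 10.68 ± 0.45 in Wnt, 11.68 ± 0.21 in Shh and 11.76 ± 0.10 in hindbrain arrays (SD, n = 8). They were lower in Wnt than in hindbrain arrays for 16 of 16 markers, and in Shh arrays 2 were lower and 1 higher. None of 19 markers of microglia and macrophages was at or below the dim level either, and their mean lay between 10.14 and 11.06 in hindbrain, between 7.91 and 10.29 in Shh and between 7.73 and 9.43 in Wnt arrays. Of these, 17 were lower in Wnt and 13 lower and 1 higher in Shh than in hindbrain arrays, and transcripts of such cells were thus part of the sorted samples. Fibroblast markers rose in both tumour groups (8 of 10 in Wnt and 9 of 10 in Shh, where the tenth, Ogn, fell by 1.65), and 7 of 12 neuron and precursor markers rose in Shh arrays. For these marker counts, 22.0% of all genes were lower and 23.2% higher in Wnt than in hindbrain arrays. In Shh arrays 18.9% were lower and 18.9% higher.

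Most members were lower in both tumours than in hindbrain, and most were lower in Wnt than in Shh arrays. Averaged over the 36 members, the arrays ran from 8.48 to 8.80 in hindbrain, from 7.34 to 8.72 in Shh and from 6.79 to 8.04 in Wnt. The Wnt arrays all lay below the hindbrain arrays, and the highest Shh array lay within the hindbrain range. In Wnt against hindbrain, 32 members fell, 0 rose and 4 did not pass the test, where 22.0% of all genes were called lower and 23.2% higher. In 23 of the 36 every Wnt array lay below every hindbrain array, which held for 9.42% of all genes. The median difference was -1.44, against -0.02 over all genes, and 27 members fell at least 2-fold (5.29% of all genes). In Shh against hindbrain, 22 fell, 0 rose and 14 did not pass, where 18.9% of all genes were lower and 18.9% higher, the median was -0.61, and 9 fell at least 2-fold (2.86% of all genes). Groups did not overlap for 8 of the 36 members (5.55% of all genes), namely Oas2, Gbp5, Irf1, Xaf1, Cmpk2, Mx2, Rsad2 and Trim25. In Wnt against Shh, 27 fell, 0 rose and 9 did not pass (17.8% of all genes lower and 18.0% higher), with a median of -0.72. Falls of at least 2-fold were seen for 13 members (3.49% of all genes). The 2 groups did not overlap for 2 of the 36 members, Samd9l and Trim25 (4.32% of all genes). Both tumour comparisons use the same hindbrain arrays, so their values are given side by side and are not independent of each other. In such samples fewer cells of a type and less RNA per cell cannot be told apart.

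The counts moved when cell markers were put into the model. With the endothelial marker mean as a covariate, 19 of the 32 falls in Wnt against hindbrain were called, where the same fit called 8.30% of all genes lower in place of 22.0%. The median over the members was -0.96, and the 13 others were Bst2, Dhx58, Eif2ak2, Gbp7, Ifi35, Ifit3, Irgm1, Isg15, Isg20, Oasl2, Parp9, Rtp4 and Xaf1. The Wnt and hindbrain arrays do not overlap in that mean (10.01 to 11.26 and 11.56 to 11.87), and neither do the Wnt and Shh arrays (11.42 to 11.92 in Shh), so in both comparisons it varies with the group itself. In Wnt against Shh, 4 falls were called with the same covariate, those of Bst2, Gbp3, Gbp5 and Irgm2, and Xaf1 was higher, where 7.11% of all genes were called lower and 7.59% higher. The median over the members was then -0.43, against -0.72 without the covariate. With the microglia and macrophage mean as a covariate, 13 of 22 falls were called in Shh against hindbrain, and Zbp1 was higher, where 14.6% of all genes were called lower and 14.2% higher. The median over the members was -0.58, close to -0.61 without the covariate. This mean does not overlap between the Wnt (7.73 to 9.43) and hindbrain arrays (10.14 to 11.06). Of the Shh arrays only array 2 (10.29) reaches the hindbrain range. So against hindbrain it too varies largely with the group itself. With the microglia and macrophage covariate the Wnt against hindbrain call of Irgm1 was lost (-0.74, adjusted p = 0.0688). So was the Wnt against Shh call of Rsad2 (-0.61, adjusted p = 0.094).

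**Figure D1:**
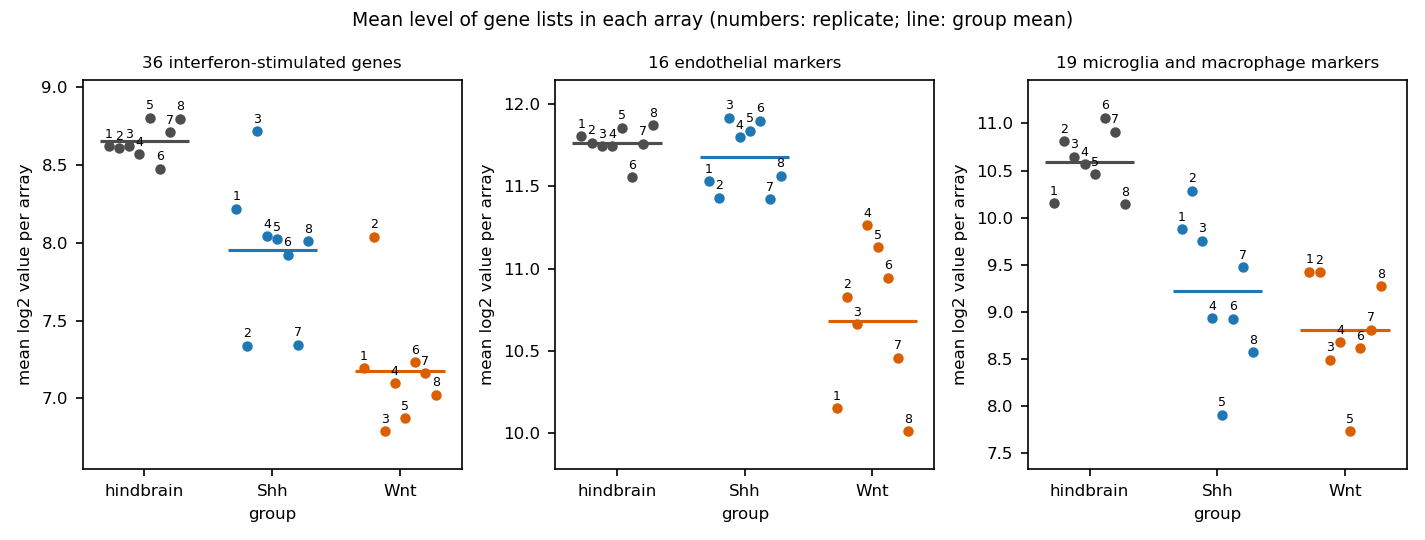
Mean log2 value of the 36 interferon-stimulated genes and of endothelial and microglia and macrophage markers in each array, by group, with replicate numbers and a line at the group mean (n = 8). The member means of the Wnt arrays run from 6.79 to 8.04, all below the hindbrain arrays at 8.48 to 8.80, and 1 Shh array at 8.72 lies within the hindbrain range.

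**Figure D2:**
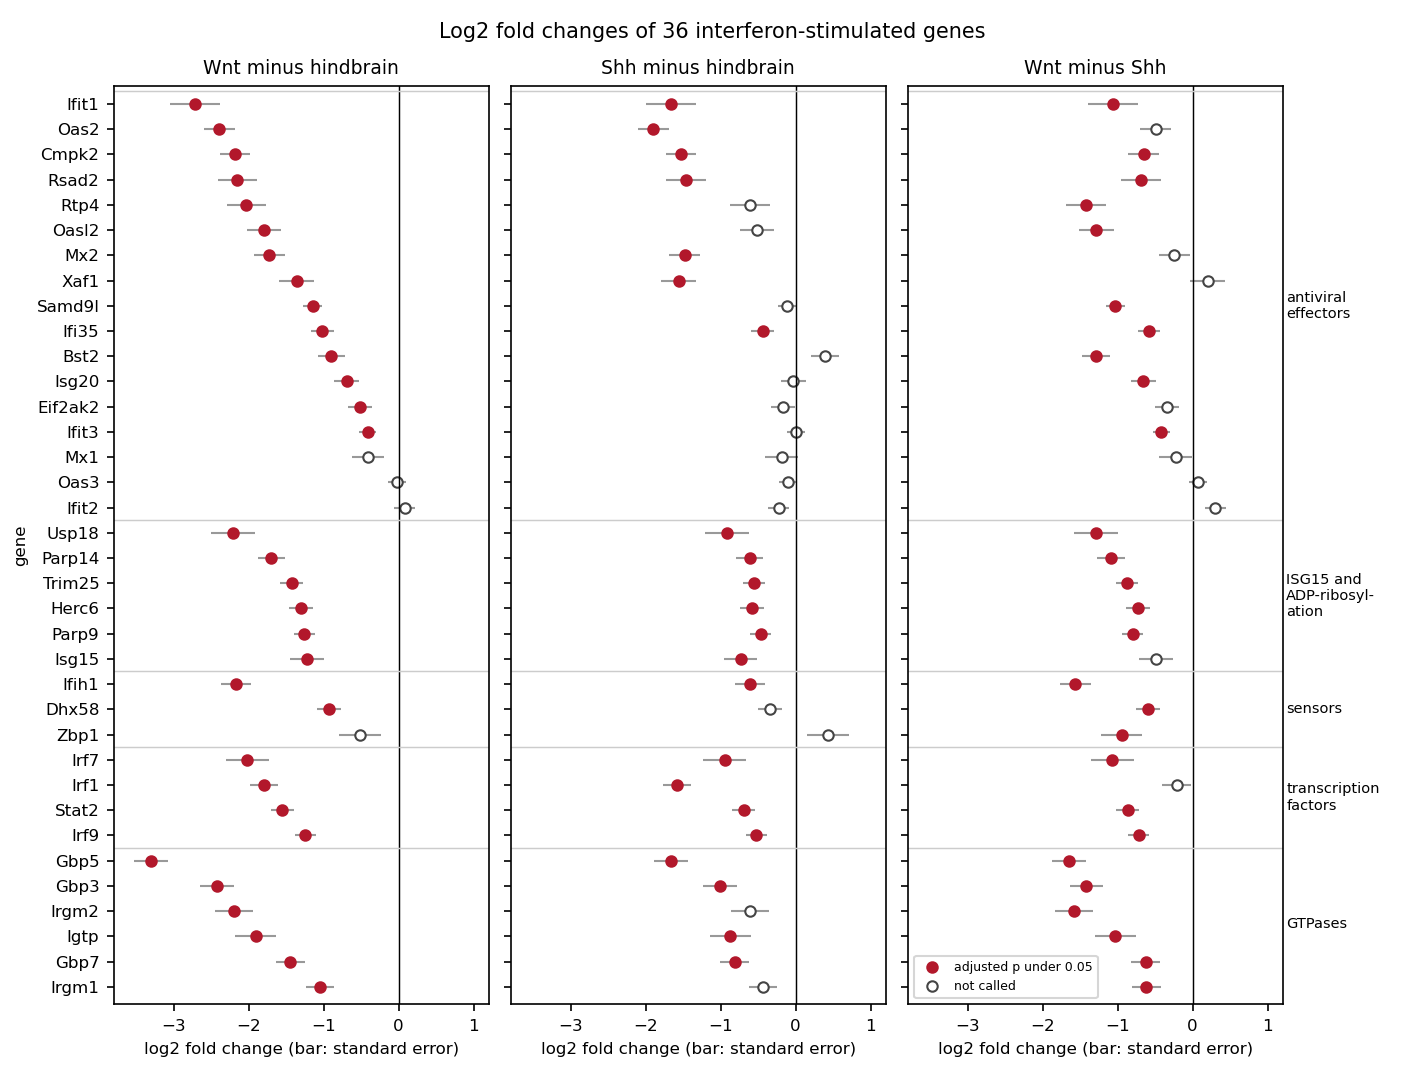
Log2 fold change of each member in the 3 comparisons, ordered by role, with the standard error as a bar. Filled points passed an adjusted p of 0.05, and these are 32 members in Wnt minus hindbrain, 22 in Shh minus hindbrain and 27 in Wnt minus Shh, all of them to the left of 0.

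The interferon-inducible GTPases had the largest median fall of the members' roles in each comparison. Guanylate-binding proteins (Gbp) and immunity-related GTPases (Igtp, Irgm1, Irgm2) assemble on the membranes around intracellular bacteria and parasites. Of 6 measured, 6 fell in Wnt and 4 in Shh against hindbrain, and 6 fell in Wnt against Shh, with medians of -2.05, -0.84 and -1.23. Gbp5 ran from 9.07 to 9.74 (median 9.45) in hindbrain, from 6.70 to 8.55 (median 7.82) in Shh and from 5.55 to 6.99 (median 6.05) in Wnt arrays. Gbp5, which also takes part in inflammasome assembly, did not overlap between hindbrain and either tumour, and it was 9.91-fold lower in Wnt (-3.31 ± 0.23, adjusted p = 1.19e-11) and 3.17-fold lower in Shh arrays (-1.66 ± 0.23, adjusted p = 2.65e-06). The Wnt and Shh ranges overlapped, with a difference of -1.65 ± 0.23, adjusted p = 2.54e-06. Gbp3 ran from 8.29 to 9.24 (median 8.59) in hindbrain, from 6.76 to 8.41 (median 7.82) in Shh and from 5.49 to 7.17 (median 6.30) in Wnt arrays. Every Wnt array was below every hindbrain array (-2.43 ± 0.23, adjusted p = 2.45e-09), and the Shh arrays reached into the hindbrain range (-1.01 ± 0.23, adjusted p = 0.000909). Gbp7 ran from 9.60 to 10.08 (median 9.79) in hindbrain, from 7.91 to 9.86 (median 9.14) in Shh and from 8.05 to 8.78 (median 8.36) in Wnt arrays. Gbp7 was also lower in Wnt (-1.44 ± 0.20, adjusted p = 1.14e-06) and dropped by 0.82 on the log2 scale in Shh arrays (adjusted p = 0.00192).

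Gbp5, Gbp7 and Gbp3 lie next to each other on chromosome 3 in RefSeq order, and Igtp next to Irgm2 on chromosome 11. Igtp ran from 8.70 to 9.67 (median 8.93) in hindbrain, from 7.17 to 9.46 (median 8.14) in Shh and from 6.42 to 8.09 (median 7.13) in Wnt arrays. Its Wnt arrays all lay below hindbrain (-1.91 ± 0.27, adjusted p = 2.49e-06), and the highest Shh array lay within the hindbrain range (-0.87 ± 0.27, adjusted p = 0.0141). Irgm2 ran from 9.45 to 10.39 (median 9.83) in hindbrain, from 8.06 to 10.38 (median 9.22) in Shh and from 6.99 to 8.32 (median 7.67) in Wnt arrays. The Shh arrays of Irgm2 spanned from the Wnt range to the hindbrain range, and the difference from hindbrain did not pass (-0.61 ± 0.26, adjusted p = 0.0633), whereas Wnt fell against hindbrain (-2.20 ± 0.26, adjusted p = 1.04e-07) and against Shh (-1.59 ± 0.26, adjusted p = 2.3e-05). Without Shh array 1 or 3 the Shh difference of Irgm2 was called (-0.70, adjusted p = 0.0408, and -0.77, adjusted p = 0.0131). Irgm1, a regulator of the other members of its family, had medians of 7.66, 7.10 and 6.52 in hindbrain, Shh and Wnt arrays and fell in Wnt (-1.05 ± 0.19, adjusted p = 4.99e-05), and in Shh it was -0.43 ± 0.19, adjusted p = 0.0735. It was called in Shh without Shh array 1, Shh array 3 or Wnt array 2 (-0.43 with all arrays, and -0.52, adjusted p = 0.033, -0.56, adjusted p = 0.0107 and -0.43, adjusted p = 0.0405 without them).

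All 4 measured transcription factors fell in both tumours against hindbrain, with medians of -1.68 in Wnt and -0.82 in Shh arrays. Stat2 and Irf9 belong to the factor that binds the ISRE, Irf7 amplifies type I interferon production, and Irf1 mediates much of the interferon gamma response. Irf1 ran from 9.35 to 10.60 (median 9.85) in hindbrain, from 7.64 to 8.88 (median 8.60) in Shh and from 7.62 to 8.87 (median 8.14) in Wnt arrays. Irf1 separated hindbrain from both tumours without overlap, by -1.80 ± 0.19 in Wnt (adjusted p = 2.01e-08) and -1.59 ± 0.19 in Shh (adjusted p = 4.06e-07), while the Wnt and Shh ranges nearly coincided (-0.21 ± 0.19, adjusted p = 0.416). Irf7 ran from 9.29 to 10.03 (median 9.63) in hindbrain, from 7.92 to 10.01 (median 8.78) in Shh and from 6.87 to 9.38 (median 7.47) in Wnt arrays. The highest Shh and Wnt arrays of Irf7, arrays 3 and 2, reached the hindbrain range, and it fell in Wnt (-2.02 ± 0.28, adjusted p = 1.63e-06) and in Shh (-0.95 ± 0.28, adjusted p = 0.0099). Irf9 ran from 9.32 to 9.77 (median 9.51) in hindbrain, from 8.58 to 9.66 (median 9.002) in Shh and from 7.90 to 8.92 (median 8.19) in Wnt arrays. Wnt arrays were all below hindbrain (-1.24 ± 0.13, adjusted p = 3.16e-08) and Shh arrays overlapped with it (-0.52 ± 0.13, adjusted p = 0.00337). Stat2 ran from 9.42 to 9.70 (median 9.58) in hindbrain, from 8.29 to 9.72 (median 8.93) in Shh and from 7.56 to 8.67 (median 7.95) in Wnt arrays. Its order was the same, with -1.56 ± 0.15, adjusted p = 6.62e-09 in Wnt and -0.69 ± 0.15, adjusted p = 0.000884 in Shh arrays. In Wnt against Shh, Irf7 (-1.07 ± 0.28), Irf9 (-0.72 ± 0.13) and Stat2 (-0.87 ± 0.15) fell, and Irf1 did not pass.

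The enzymes of Isg15 conjugation and ADP-ribosylation fell, 6 of 6 in each tumour against hindbrain and 5 of 6 in Wnt against Shh, with medians of -1.37, -0.60 and -0.83. Trim25 ran from 9.59 to 10.12 (median 9.82) in hindbrain, from 8.93 to 9.55 (median 9.36) in Shh and from 7.41 to 8.81 (median 8.56) in Wnt arrays. Trim25, the ubiquitin ligase that activates the RNA sensor RIG-I, was the one member whose 3 groups did not overlap at all, in the order hindbrain, Shh, Wnt. It fell by 0.56 on the log2 scale in Shh against hindbrain (adjusted p = 0.00395) and by 0.87 in Wnt against Shh (adjusted p = 3.79e-05). Usp18 ran from 9.80 to 10.39 (median 10.13) in hindbrain, from 8.01 to 10.46 (median 9.32) in Shh and from 7.12 to 9.52 (median 7.77) in Wnt arrays. Usp18 removes Isg15 from proteins and blocks signalling at the type I interferon receptor, and it fell 4.62-fold in Wnt (-2.21 ± 0.30, adjusted p = 8.46e-07) with no overlap, and in Shh with overlap (-0.92 ± 0.30, adjusted p = 0.0167). Herc6 ran from 8.97 to 9.34 (median 9.15) in hindbrain, from 7.88 to 9.51 (median 8.62) in Shh and from 7.56 to 8.45 (median 7.86) in Wnt arrays. Herc6, the main ligase for Isg15 in mice, fell in Wnt (-1.31 ± 0.16, adjusted p = 1.99e-07) and Shh (-0.58 ± 0.16, adjusted p = 0.00532).

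Isg15 ran from 5.87 to 6.64 (median 6.19) in hindbrain, from 4.55 to 6.47 (median 5.45) in Shh and from 4.29 to 5.96 (median 4.94) in Wnt arrays. The Wnt mean of Isg15 (4.95) was within the ERCC level, so the size of its fall there (-1.22 ± 0.22, adjusted p = 5.92e-05) is uncertain, and it also fell in Shh (-0.73 ± 0.22, adjusted p = 0.0114). Its Wnt against Shh difference (-0.49 ± 0.22, adjusted p = 0.0905) was called without Shh array 2 (-0.62, adjusted p = 0.0256) or Wnt array 2 (-0.64, adjusted p = 0.0174). Parp9 ran from 8.12 to 8.40 (median 8.22) in hindbrain, from 7.18 to 8.41 (median 7.79) in Shh and from 6.54 to 7.55 (median 6.96) in Wnt arrays. Parp14 ran from 8.92 to 9.25 (median 9.13) in hindbrain, from 7.64 to 9.42 (median 8.59) in Shh and from 7.02 to 8.14 (median 7.27) in Wnt arrays. Both add or read ADP-ribose and lie beside the unmeasured Dtx3l, the partner of Parp9, on chromosome 16. Their Wnt arrays were all below hindbrain, by -1.26 ± 0.14 for Parp9 and -1.70 ± 0.18 for Parp14, and their Shh ranges crossed it (-0.46 ± 0.14, adjusted p = 0.0112 for Parp9, and -0.61 ± 0.18, adjusted p = 0.00954 for Parp14).

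Of the 3 sensors, 2 fell in Wnt and 1 in Shh against hindbrain, and 3 fell in Wnt against Shh. Ifih1 ran from 9.51 to 10.24 (median 9.81) in hindbrain, from 8.48 to 10.01 (median 9.28) in Shh and from 7.12 to 8.81 (median 7.53) in Wnt arrays. Ifih1 encodes MDA5, a sensor of long double-stranded RNA, and it fell 4.51-fold in Wnt with no overlap (-2.17 ± 0.20, adjusted p = 2.7e-09), and in Shh (-0.61 ± 0.20, adjusted p = 0.0202). The Shh call was lost without Shh array 7, at -0.50, adjusted p = 0.0503. Zbp1 ran from 6.94 to 7.51 (median 7.18) in hindbrain, from 6.74 to 8.72 (median 7.50) in Shh and from 5.88 to 8.04 (median 6.61) in Wnt arrays. Zbp1 senses Z-form nucleic acid and can start necroptosis, and its ranges overlapped in all 3 pairs of groups. It was -0.51 ± 0.28, adjusted p = 0.138 in Wnt and 0.43 ± 0.28, adjusted p = 0.229 in Shh against hindbrain, neither of them called, and it fell in Wnt against Shh (-0.95 ± 0.28, adjusted p = 0.00847). Its Wnt against hindbrain difference was called without Wnt array 2, at -0.71, adjusted p = 0.0223, and with the microglia covariate Zbp1 was higher in Shh than in hindbrain arrays (1.05, adjusted p = 0.03). Dhx58, or LGP2, a helper of MDA5, fell in Wnt (-0.93 ± 0.16, adjusted p = 2.95e-05) and was -0.34 ± 0.16, adjusted p = 0.101 in Shh, where it was called without Shh array 3 (-0.45, adjusted p = 0.0136) or Wnt array 2 (-0.34, adjusted p = 0.0419).

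The antiviral effectors were the most varied role, with 14 of 17 lower in Wnt and 7 of 17 in Shh against hindbrain, and medians of -1.15 and -0.44. Ifit1 ran from 9.37 to 10.20 (median 9.79) in hindbrain, from 7.02 to 9.67 (median 8.07) in Shh and from 6.22 to 8.93 (median 6.92) in Wnt arrays. Ifit1 binds RNA that lacks the cap methylation of the host and blocks its translation, and it fell 6.59-fold in Wnt with no overlap (-2.72 ± 0.33, adjusted p = 2.31e-07). In Shh arrays it fell as well (-1.66 ± 0.33, adjusted p = 0.000334), although array 3 there reached the hindbrain range. Ifit2 ran from 6.59 to 7.59 (median 7.07) in hindbrain, from 6.37 to 7.29 (median 6.89) in Shh and from 6.79 to 7.81 (median 7.15) in Wnt arrays. Ifit2, of the same family, overlapped in every pair of groups and passed no test (0.08 ± 0.14, adjusted p = 0.693 in Wnt, and -0.22 ± 0.14, adjusted p = 0.227 in Shh). Under quantile normalization its Shh difference was called (-0.33, adjusted p = 0.0463), the sign of the Wnt difference turned (-0.06, adjusted p = 0.758), and with the microglia covariate Ifit2 was higher in Wnt than in Shh arrays (0.37, adjusted p = 0.0476). Ifit3 ran from 7.28 to 7.83 (median 7.55) in hindbrain, from 7.04 to 7.91 (median 7.63) in Shh and from 6.78 to 7.58 (median 7.14) in Wnt arrays. Ifit3, its neighbour on chromosome 19 and binding partner of Ifit1, fell in Wnt (-0.41 ± 0.12, adjusted p = 0.00508) and was near 0 in Shh (0.00 ± 0.12, adjusted p = 0.979).

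The oligoadenylate synthetases make the messenger that activates RNase L when they meet double-stranded RNA. Oas2 ran from 8.67 to 9.13 (median 8.99) in hindbrain, from 6.51 to 7.75 (median 6.96) in Shh and from 5.78 to 7.74 (median 6.49) in Wnt arrays. Oas2 had the largest Shh fall of all members, 3.74-fold (-1.90 ± 0.21, adjusted p = 9.89e-08), and fell 5.27-fold in Wnt (-2.40 ± 0.21, adjusted p = 6.93e-10), with no tumour array in the hindbrain range. Its Wnt against Shh difference (-0.49 ± 0.21, adjusted p = 0.0661) was called when Shh array 2, 5 or 7 or Wnt array 2 was left out, at -0.55, adjusted p = 0.0493, -0.55, adjusted p = 0.0475, -0.57, adjusted p = 0.0385 and -0.66, adjusted p = 0.00327. Oas3 ran from 6.25 to 6.68 (median 6.40) in hindbrain, from 5.92 to 7.08 (median 6.18) in Shh and from 6.24 to 6.56 (median 6.46) in Wnt arrays. Oas3, the gene next to Oas2 on chromosome 5, overlapped in every pair and passed no test (-0.02 ± 0.12, adjusted p = 0.914 in Wnt, and -0.10 ± 0.12, adjusted p = 0.568 in Shh). Oasl2, a relative, had medians of 10.37, 9.95 and 8.41 in hindbrain, Shh and Wnt arrays, and it fell in Wnt with no overlap (-1.80 ± 0.23, adjusted p = 4.12e-07), and in Shh it was -0.51 ± 0.23, adjusted p = 0.0807. It was called in Shh without Shh array 3 (-0.63, adjusted p = 0.0299) or Wnt array 2 (-0.51, adjusted p = 0.0185).

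Rsad2 and Cmpk2 are neighbours on chromosome 12 that act in one path, as Cmpk2 supplies nucleotides that Rsad2, or viperin, converts into a terminator of viral RNA synthesis. Rsad2 ran from 8.74 to 9.67 (median 9.03) in hindbrain, from 6.59 to 8.69 (median 7.48) in Shh and from 6.25 to 8.45 (median 6.80) in Wnt arrays. Cmpk2 ran from 9.66 to 10.44 (median 10.08) in hindbrain, from 7.73 to 9.35 (median 8.56) in Shh and from 7.32 to 8.72 (median 7.82) in Wnt arrays. Both genes were below hindbrain in every tumour array, Rsad2 by -2.15 ± 0.27 in Wnt (adjusted p = 2.49e-07) and -1.46 ± 0.27 in Shh (adjusted p = 0.000109), and Cmpk2 by -2.19 ± 0.21 in Wnt (adjusted p = 2.89e-09) and -1.53 ± 0.21 in Shh (adjusted p = 2.04e-06). In Wnt against Shh, Cmpk2 fell (-0.66 ± 0.21, adjusted p = 0.0138), and Rsad2 passed narrowly (-0.69 ± 0.27, adjusted p = 0.045). The Rsad2 call was lost when any of 16 arrays was left out (hindbrain 2, 3, 5 and 7, Shh 1, 3, 4, 5, 6 and 8, Wnt 1, 3, 4, 5, 7 and 8), with values from -0.72 to -0.53, and with the replicate block (adjusted p = 0.0712).

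Mx1 and Mx2 belong to a family of dynamin-like GTPases that can block virus replication, and whether those of these mice do was not tested. Mx2 ran from 6.47 to 7.47 (median 7.24) in hindbrain, from 5.06 to 6.29 (median 5.64) in Shh and from 4.97 to 6.40 (median 5.30) in Wnt arrays. Mx2 fell in Wnt (-1.73 ± 0.20, adjusted p = 1.18e-07) and Shh (-1.48 ± 0.20, adjusted p = 2.86e-06) with no overlap, and the Wnt against Shh difference was not called (-0.24 ± 0.20, adjusted p = 0.383). Mx1 ran from 4.37 to 5.14 (median 4.85) in hindbrain, from 4.13 to 4.94 (median 4.76) in Shh and from 3.81 to 5.86 (median 4.13) in Wnt arrays. Mx1 was within the ERCC level on average in each group, and no difference passed (-0.41 ± 0.22, adjusted p = 0.139 in Wnt), except without Wnt array 2 or with array weights against hindbrain (-0.61, adjusted p = 0.00385, and -0.48, adjusted p = 0.0441) and without Wnt array 2 against Shh (-0.43, adjusted p = 0.0474). Xaf1 ran from 9.74 to 10.78 (median 10.42) in hindbrain, from 8.02 to 9.61 (median 8.82) in Shh and from 8.30 to 10.01 (median 8.93) in Wnt arrays. Xaf1 favours cell death, and it was the called member whose Shh fall (-1.56 ± 0.23, adjusted p = 7.31e-06) exceeded its Wnt fall (-1.36 ± 0.23, adjusted p = 2.16e-05), with no test passed between the tumours (0.20 ± 0.23, adjusted p = 0.541). With the endothelial covariate Xaf1 was higher in Wnt than in Shh arrays (1.16, adjusted p = 0.0243).

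Bst2 ran from 6.57 to 7.56 (median 6.82) in hindbrain, from 6.596 to 7.72 (median 7.32) in Shh and from 5.29 to 6.84 (median 5.97) in Wnt arrays. Bst2, or tetherin, which holds budding virus at the cell surface, fell in Wnt against hindbrain (-0.90 ± 0.18, adjusted p = 0.000203) and against Shh (-1.29 ± 0.18, adjusted p = 3.46e-06), and in Shh it was 0.39 ± 0.18, adjusted p = 0.0944. It was called higher in Shh without hindbrain array 8 (0.49, adjusted p = 0.0317), without Shh array 2 (0.49, adjusted p = 0.0338) and with array weights (0.46, adjusted p = 0.0221). Samd9l ran from 6.93 to 7.36 (median 7.08) in hindbrain, from 6.42 to 7.66 (median 7.0) in Shh and from 5.57 to 6.26 (median 5.97) in Wnt arrays. Samd9l, a restrictor of translation and cell growth, was lower in every Wnt array than in every array of hindbrain (-1.15 ± 0.13, adjusted p = 4.65e-08) or Shh (-1.04 ± 0.13, adjusted p = 4.8e-07), and Shh was -0.11 ± 0.13, adjusted p = 0.526 against hindbrain. Ifi35 ran from 9.43 to 9.81 (median 9.67) in hindbrain, from 8.46 to 9.88 (median 9.23) in Shh and from 8.21 to 8.99 (median 8.57) in Wnt arrays. Ifi35 fell in Wnt (-1.02 ± 0.15, adjusted p = 3.16e-06) and Shh (-0.44 ± 0.15, adjusted p = 0.0219), where the call was lost without Shh array 2 (-0.34, adjusted p = 0.0533). With the endothelial covariate its Wnt against Shh fall (-0.58 ± 0.15, adjusted p = 0.00333) turned in sign (0.15, adjusted p = 0.687). Of the remaining effectors, Rtp4 fell in Wnt with no overlap (-2.03 ± 0.26, adjusted p = 5.11e-07) and was called in Shh without Shh array 3 or Wnt array 2 (-0.61 ± 0.26, adjusted p = 0.0706 with all arrays, then -0.81, adjusted p = 0.00787 and -0.61, adjusted p = 0.0317). The exonuclease Isg20 (-0.69 ± 0.17, adjusted p = 0.00128) and the kinase PKR, encoded by Eif2ak2 (-0.51 ± 0.16, adjusted p = 0.0106), fell in Wnt with overlap and were -0.03 and -0.17 in Shh. Eif2ak2 was not called in Wnt against hindbrain without Wnt arrays 1 and 8 (-0.41, adjusted p = 0.0577), which had low endothelial markers, and in Wnt against Shh it was called without Shh array 2 (-0.42, adjusted p = 0.0351) or 7 (-0.43, adjusted p = 0.0325).

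**Figure D3:**
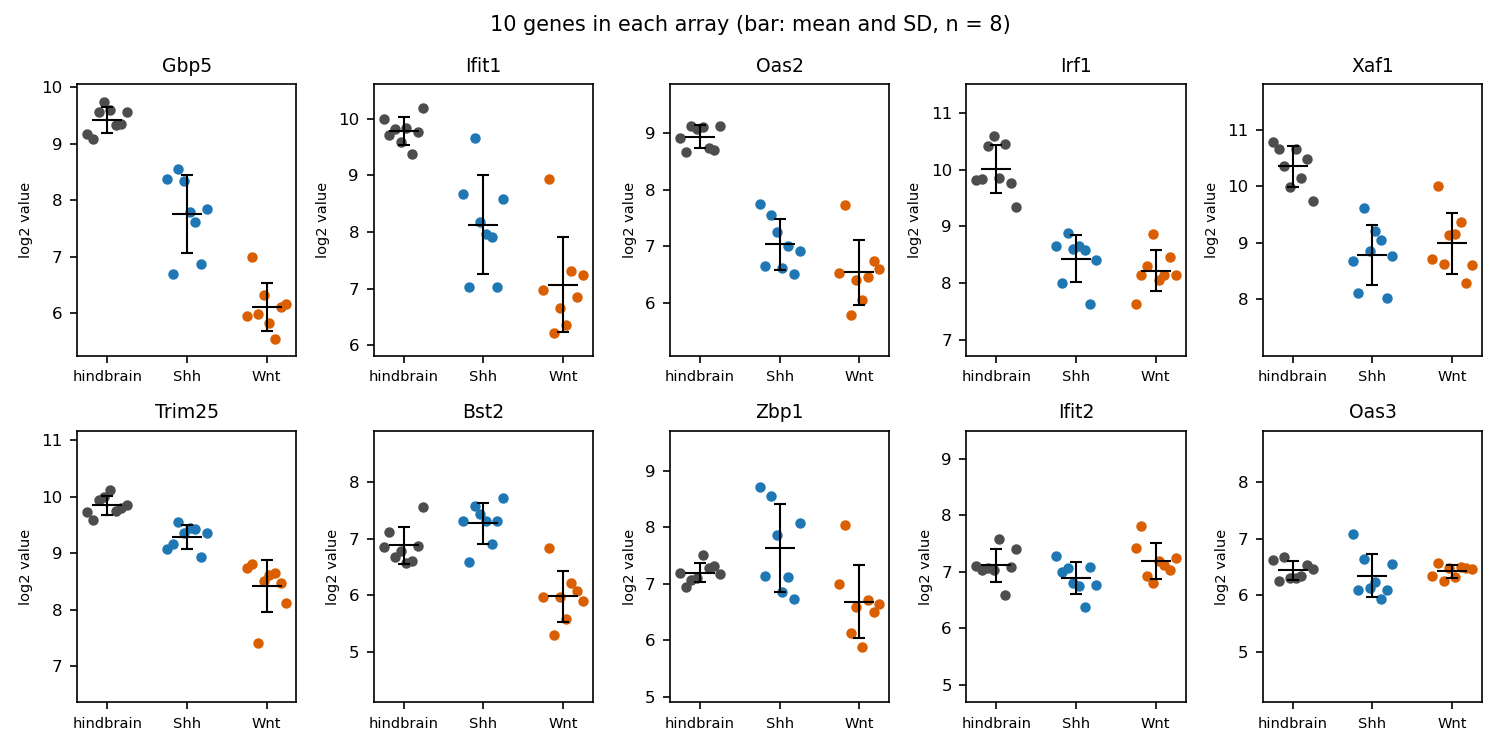
Log2 values of 10 members in each of the 8 arrays per group, with the mean and SD (n = 8), chosen after their values had been seen to show the different patterns. Trim25 separates all 3 groups, Irf1 and Oas2 separate hindbrain from both tumours, Bst2 is lowest in Wnt arrays, and Ifit2 and Oas3 overlap in every pair.

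Member values were more spread among the tumour arrays than among the hindbrain arrays, and in each tumour group 1 array was the highest for most members. The SD of a member within a group had a median of 0.19 in hindbrain, close to 0.18 over all genes, but 0.49 in Shh and 0.45 in Wnt arrays, where all genes had 0.21 in both. It was above the median of all genes for 36 of 36 members in Shh arrays, 35 in Wnt arrays and 20 in hindbrain arrays. Shh array 3 held the highest Shh value of 28 of 36 members, and 16.1% of all genes were highest there. The 8 exceptions were Ifit2, Ifit3, Mx1, Bst2, Isg20, Oas2, Oas3 and Zbp1. Wnt array 2 held the highest Wnt value of 32 members, all but Ifit3, Ifi35, Irf1 and Irgm2, against 14.1% of all genes. At the other end, Shh array 7 was lowest for 21 members (13.9% of all genes) and Wnt array 3 for 17 (15.0%). In hindbrain, array 8 was highest for 13 members (15.3%) and array 6 lowest for 17 (22.9%).

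Shh array 3, with a member mean of 8.72, had the highest endothelial marker mean of its group (11.92) and the highest mean of 9 neutrophil and monocyte markers (6.65). Shh arrays 2 and 7 had the lowest member means of the group (7.34 and 7.35), its lowest endothelial means (11.43 and 11.42) and its highest neuron and precursor means (8.24 and 8.43). Shh array 2 also had the highest mean of microglia and macrophage markers in its group (10.29). Wnt array 2, with a member mean of 8.04, had an endothelial mean of 10.83, near the group median of 10.75, and a microglia and macrophage mean of 9.42, where the highest Wnt array had 9.43. Of the 9 neutrophil and monocyte markers, 6 were dim in hindbrain arrays, 6 in Wnt arrays and 4 in Shh arrays, Ly6g among them in each group. The part of these cells in the members' values was not tested beyond the covariates above. Without Wnt array 2 and Shh array 3, a choice made after seeing the data, 34, 27 and 29 members fell in Wnt against hindbrain, Shh against hindbrain and Wnt against Shh, and 0 rose.

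**Figure D4:**
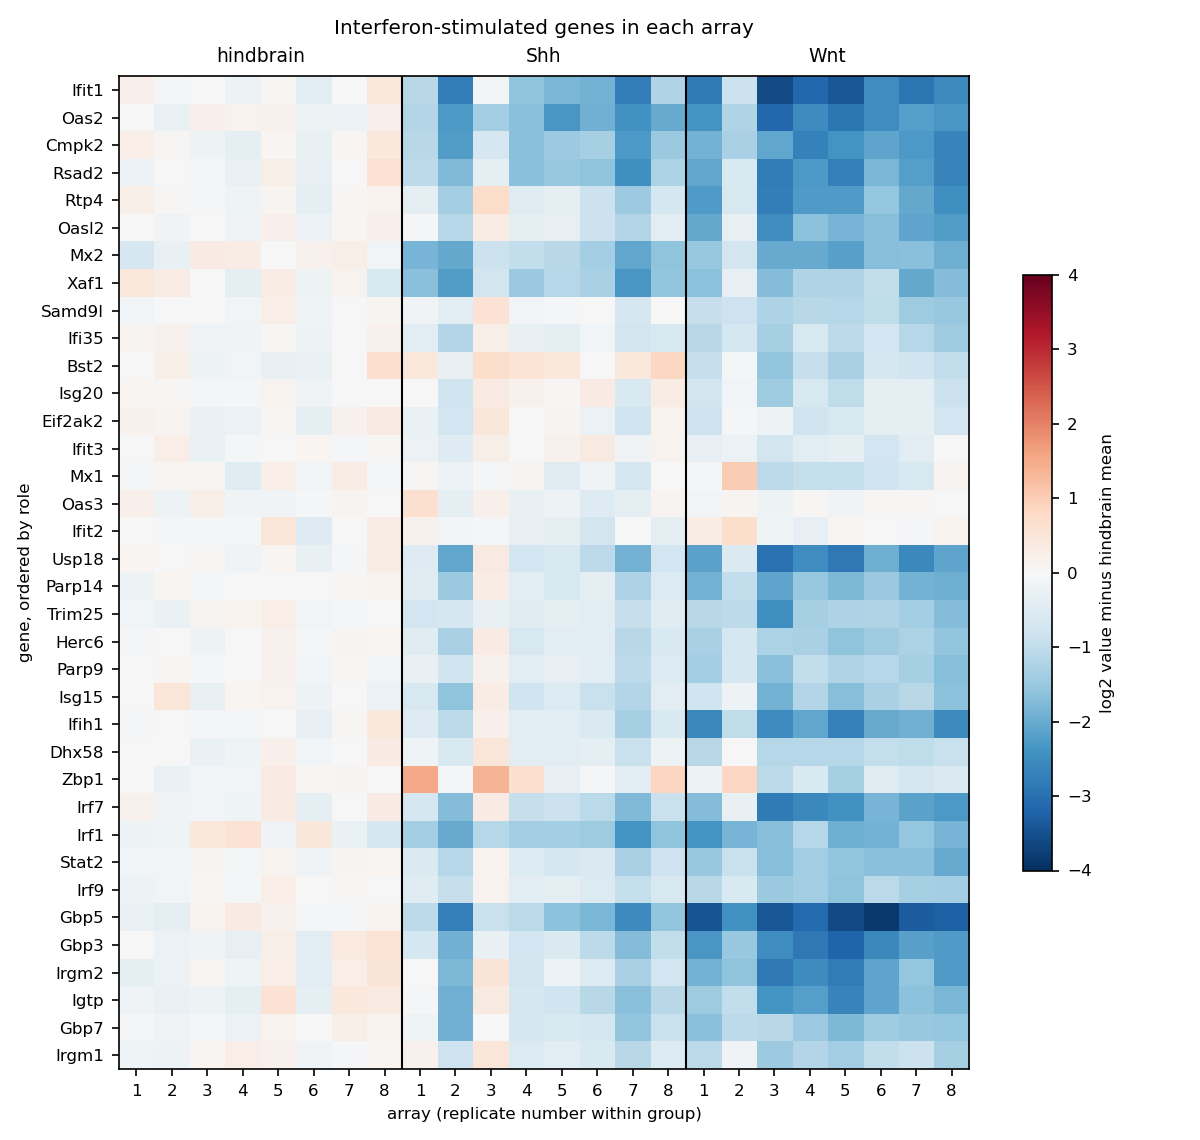
Log2 value of each member in each array minus its hindbrain mean, with genes in rows ordered by role and arrays in columns by group, blue for lower and red for higher. Most Wnt columns are blue in most rows. Wnt array 2 is the highest of its group in 32 of 36 rows, in some of them red, and Shh array 3 is the highest of its group in 28 rows.

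Upstream parts of the pathway were mixed. For the counts that follow, 22.0% of all genes were called lower and 23.2% higher in Wnt against hindbrain. In Shh against hindbrain 18.9% were lower and 18.9% higher. Of 13 measured interferon ligands and receptor chains, 8 fell (61.5%) and 2 rose in Wnt, and 7 fell (53.8%) and 1 rose in Shh against hindbrain. Ifnb1, interferon beta, had means of 4.04 ± 0.58 in Wnt, 4.14 ± 0.32 in Shh and 5.58 ± 0.48 in hindbrain arrays (SD, n = 8), and was dim in both tumours, as Ifna2, Ifna11 and Ifnk were in every group. Il10rb, a chain of the interferon lambda receptor, fell in Wnt (-1.60 ± 0.10, adjusted p = 3.42e-12), where the other chain of it, Ifnlr1, rose (0.96 ± 0.11, adjusted p = 8.88e-08), as Ifna12 did (0.29 ± 0.11, adjusted p = 0.0297). The interferon gamma receptor chain Ifngr1 fell in Shh (-0.66 ± 0.11, adjusted p = 2.39e-05), and its partner Ifngr2 rose there (0.38 ± 0.12, adjusted p = 0.0173).

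Of 10 other kinases, STATs and IRFs, 4 fell (40%) and 1 rose in each tumour against hindbrain. Over all genes, 22.0% were lower in Wnt and 18.9% in Shh. The receptor kinase Tyk2 fell in Wnt (-0.92 ± 0.08, adjusted p = 1.28e-09) and Shh (-0.42 ± 0.08, adjusted p = 0.000218), and so did Irf8, a factor of the myeloid lineage that microglia express, in Wnt (-1.77 ± 0.22, adjusted p = 3.33e-07) and Shh (-1.13 ± 0.22, adjusted p = 0.000267). Stat5a rose in Wnt (0.53 ± 0.14, adjusted p = 0.00208) and Stat4 in Shh (1.23 ± 0.25, adjusted p = 0.000441), from a hindbrain mean within the ERCC level. Of 15 negative regulators, 5 fell (33.3%) and 2 rose in Wnt, and 8 fell (53.3%) and 2 rose in Shh. The Wnt share is not far from the 22.0% of all genes. Tnfaip3, or A20, an inhibitor of inflammatory signalling, fell in Wnt (-3.01 ± 0.26, adjusted p = 7.74e-10) and Shh (-1.95 ± 0.26, adjusted p = 2.14e-06), and Rnf125, a ligase that marks RNA sensors for degradation, by -1.99 ± 0.26 and -1.12 ± 0.26. Socs2 rose by 0.83 ± 0.22 and 0.55 ± 0.22, and Pias2 by 0.22 ± 0.06 and 0.23 ± 0.06.

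Among 18 sensors and adaptors outside the members, 12 fell (66.7%) and 2 rose in Wnt, and 7 fell (38.9%) and 3 rose in Shh. Over all genes, 22.0% were lower in Wnt and 18.9% in Shh. Aim2, a sensor of cytosolic DNA, had the largest fall in Wnt (-2.38 ± 0.18, adjusted p = 6.07e-11). The endosomal receptors Tlr7 and Tlr9, which myeloid cells carry, fell in Wnt (-2.25 ± 0.40 and -2.21 ± 0.25) and in Shh (-1.88 ± 0.40 and -1.96 ± 0.25), alongside the microglia and macrophage markers. Ifi204 rose in Wnt (1.63 ± 0.41, adjusted p = 0.00176) and Shh (1.71 ± 0.41, adjusted p = 0.00167), from a dim hindbrain mean, Mavs rose in Wnt (0.22 ± 0.07, adjusted p = 0.00724), and Mndal rose in Shh (1.75 ± 0.42, adjusted p = 0.00176). Of 57 other interferon-stimulated genes, 41 fell (71.9%) and 7 rose in Wnt, and 30 fell (52.6%) and 6 rose in Shh, with medians of -0.72 and -0.49. Ly6c1 (-3.00 ± 0.33), a surface protein of brain endothelium, and Gbp4 (-2.81 ± 0.34) had the largest falls in Wnt, and Gbp4 (-1.80 ± 0.34) and Cd274 (-1.35 ± 0.28), the checkpoint ligand PD-L1, in Shh. Serping1, an inhibitor of complement, rose in Wnt (1.73 ± 0.23, adjusted p = 8.84e-07) and Shh (1.30 ± 0.23, adjusted p = 8.94e-05), Ifitm2 in Wnt (0.86 ± 0.14) and Ms4a4c in Shh (0.58 ± 0.23).

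Genes of antigen presentation and chemokines, which interferons also induce, completed the lists. Over all genes, 22.0% were lower in Wnt and 18.9% lower and 18.9% higher in Shh against hindbrain. In Wnt against Shh 17.8% were lower. Of 14 class I genes, 13 fell in Wnt (92.9%) and 10 in Shh (71.4%) against hindbrain and 0 rose, and 13 fell (92.9%) and 1 rose in Wnt against Shh. H2-Q4 changed by -2.31 ± 0.23 in Wnt and -1.07 ± 0.23 in Shh, and H2-T23 by -1.96 ± 0.18 and -0.81 ± 0.18. Of 6 class II genes, 2 fell (33.3%, not far from the share of all genes) and 0 rose in Wnt, and 2 rose and 0 fell in Shh. H2-Eb1 was higher in Shh (0.81 ± 0.30, adjusted p = 0.0337) and lower in Wnt (-0.93 ± 0.30, adjusted p = 0.0122) than in hindbrain arrays, and the class II activator Ciita was higher in Shh (0.48 ± 0.13, adjusted p = 0.00539). H2-DMa fell in Wnt (-1.17 ± 0.28, adjusted p = 0.00116). Of 7 chemokines, 5 fell in Wnt (71.4%), Cxcl10 (-2.08 ± 0.36) and Cxcl11 (-2.01 ± 0.46) the most. In Shh 2 fell (28.6%), Ccl12 (-2.01 ± 0.31) and Cxcl10 (-1.17 ± 0.36). Cxcl9, an attractant of T cells that interferon gamma induces, rose in Shh against hindbrain (2.43 ± 0.52, adjusted p = 0.000576), with means of 6.85 ± 0.85 in Wnt, 9.34 ± 1.69 in Shh and 6.90 ± 0.39 in hindbrain arrays (SD, n = 8). Of 10 lymphocyte markers, 2 were higher in Shh, near the share of all genes, and 5 lower in Wnt (50%) than in hindbrain arrays. Of these markers 3 or 4 were dim in each group.

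**Figure D5:**
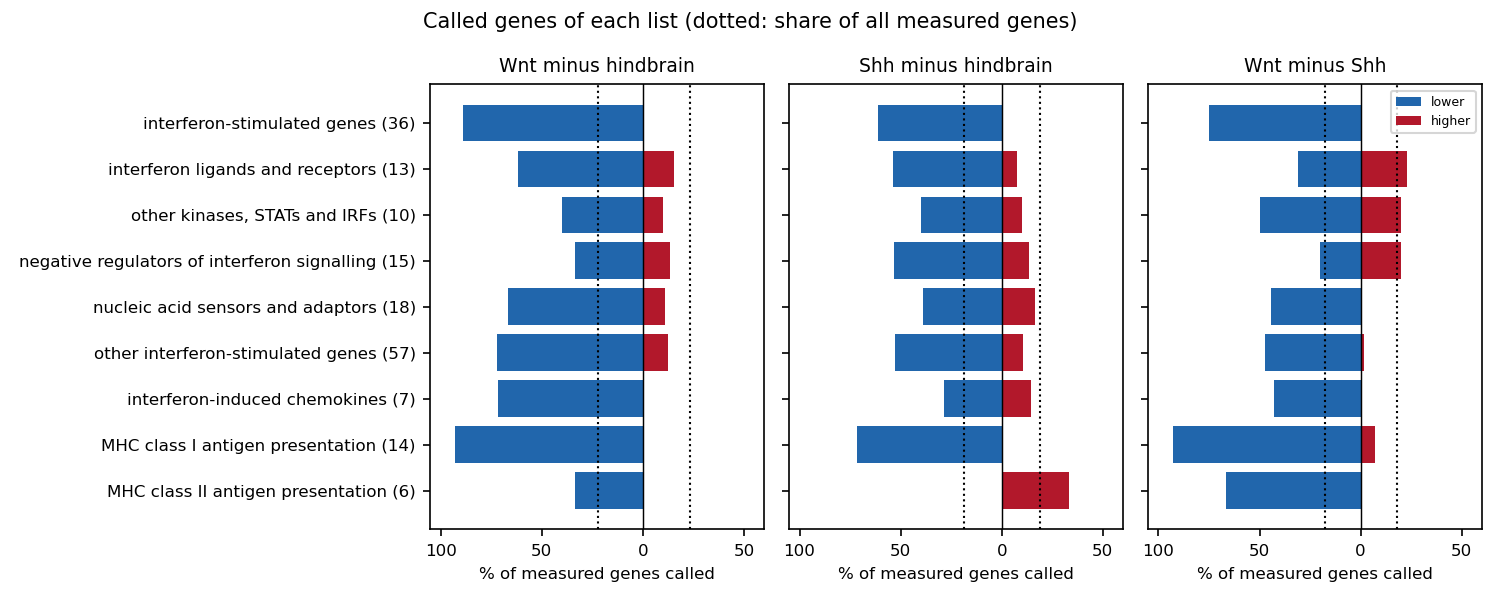
Share of measured genes of each list called lower (left of 0) or higher (right of 0) in the 3 comparisons, with the number measured in brackets and dotted lines at the share of all measured genes. Cell marker lists are not drawn. Of the lists drawn, the 36 members and 14 class I genes have the longest left bars in Wnt minus hindbrain (32 and 13 genes). In Shh minus hindbrain 2 of 6 class II genes were called higher and 0 lower, against 18.9% of all genes each way.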

How the data were processed

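Expression was measured on Affymetrix mouse arrays with biotinylated cRNA, in 3 groups of 8 samples that the labels call biological replicates. RNA came from Qiagen RNeasy Micro columns, per the labels' protocols. Values were deposited on a log2 scale, which their range from 1.73 to 14.01 shows, with 1 value for each probe set of an array. The submitters' processing notes name Partek 6.6 but not what it did, with the normalization and background correction not given in the sources used here. Unequal normalization between groups would move every difference printed here. Among 41345 probe sets, 190 were controls, 23521 had 1 gene symbol in the platform annotation, 1814 several and 15820 none. Each gene was represented by its single-symbol probe set with the highest mean over the 24 arrays. Levels of different probe sets were not compared with each other.

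A linear model with group as its factor was fitted by limma (version 3.58.1, R 4.3.3) to all arrays and 22180 genes, with eBayes but no variance trend, leaving 21 residual degrees of freedom. Adjustment was by Benjamini-Hochberg over all genes. The script was tested on simulated data. Precision is limited by the number of arrays.

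Members and gene lists were chosen with earlier results of these data known. Array values are given for members with the 6 largest falls without overlap in a comparison, for those called in Shh against hindbrain, for those with opposite signs in the tumours and a call, and for those not called in Wnt against hindbrain. From each pathway list, the 2 largest called rises and falls in each tumour against hindbrain are named. Promoter windows were matched by symbol in the RefSeq tables. Alternatives were other uses of probe sets, other scalings, a filter on dim genes, other variance models, a replicate block, marker covariates and leaving out arrays.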

Additional observations from a re-analysis of the deposited data

Results flagged for a closer look

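In each group of 8 arrays, the gap between the highest or lowest array and the next was divided by the range of the group, for all 36 members and 3 groups (108 sets of values), and set against Dixon's 95% critical value. Chance passes about 1 in 20 such sets where they are independent. These sets are not, as all members were read on the same arrays, so their number cannot be set against that rate. The 10 sets that passed were all in the Wnt group, with array 2 as the highest.

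Ifit1 had a value of 8.93 in Wnt array 2 and 7.31 in the next array, Rsad2 8.45 and 7.21, Mx2 6.40 and 5.61, and Oasl2 10.04 and 8.74. Among the genes of Isg15 conjugation, Usp18 had 9.52 and 8.13, and Herc6 8.45 and 7.92. The sensors Ifih1 (8.81 and 7.91) and Dhx58 (7.64 and 6.76), the transcription factor Irf7 (9.38 and 7.96) and the GTPase Irgm1 (7.51 and 6.80) completed the set. What sets this array apart was not tested. Without it, 34 members fell in Wnt against hindbrain, as Mx1 and Zbp1 were called as well.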

How the results depend on the processing

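With the endothelial marker mean as a covariate, 19 members fell in Wnt against hindbrain (median -0.96), and in Wnt against Shh 4 fell and 1 rose (Xaf1), with Ifi35 turned to 0.15 (adjusted p = 0.687). With the microglia and macrophage mean, 13 fell and 1 rose (Zbp1) in Shh against hindbrain, and 1 rose (Ifit2) in Wnt against Shh. The Shh calls lost there, though not the direction, were those of Herc6, Ifih1, Igtp, Irf7, Irf9, Isg15, Parp14, Parp9 and Usp18, with differences from -0.79 to -0.41 against -0.95 to -0.46 without the covariate, and standard errors from 0.19 to 0.43 against 0.13 to 0.30. With array weights 1 member (Bst2) rose in Shh against hindbrain, and Dhx58, Irgm1, Irgm2, Oasl2 and Rtp4 fell there as well. Quantile normalization added Dhx58, Ifit2, Irgm1 and Rtp4 to the Shh falls and Oas2 to those in Wnt against Shh, and fits of the compared groups alone added Oasl2 and Rtp4 in Shh. Rsad2 in Wnt against Shh was also lost with the median shift (adjusted p = 0.0731), the microglia covariate (adjusted p = 0.094) and the compared groups alone (adjusted p = 0.0918). Leaving out each array gave 32 to 34 members lower in Wnt against hindbrain (median -1.50 to -1.40, 0 higher). It gave 21 to 27 lower and 0 to 1 higher in Shh against hindbrain (median -0.73 to -0.49), and 26 to 30 lower in Wnt against Shh (median -0.85 to -0.62, 0 higher). The count and median of each other setting stayed within 1.5 times or the spread of the main value. The settings on probe sets are no check of the members, as only the values of Ifi35 could change there. With each probe set on its own, the Ifi35 probe set with the smaller adjusted p was kept, and its other probe set is not reported.

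Whether the replicate numbers pair the samples is not known. After each gene's group mean was subtracted, correlations of the remaining deviations between same-numbered arrays ran from -0.146 to 0.282. Of 24 such pairs, 3 were over 0.1. The same correlations were not computed between arrays of different numbers, so these values cannot settle it. With the replicate block 32, 22 and 26 members fell in Wnt against hindbrain, Shh against hindbrain and Wnt against Shh, and Rsad2 in the last was the one call lost. The share of called genes that were higher in Wnt against Shh was 50.3%, and 62.3% with arrays shifted to the same median. Depth has no direct measure on arrays, and the dim Mx1 and, in Wnt arrays, Isg15 have uncertain sizes.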

Other observations

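Calls among markers of other cells of the brain were counted too. Over all genes, 22.0% were lower and 23.2% higher in Wnt than in hindbrain arrays. In Shh arrays 18.9% were lower and 18.9% higher. Of 11 pericyte markers, 7 were lower in Wnt (63.6%), and 2 were lower (18.2%, near the share of all genes) and 1 higher in Shh than in hindbrain arrays. Of 8 oligodendrocyte markers, 5 were lower in each tumour and 2 were higher in Shh. Of 9 astrocyte markers, 2 rose and 2 fell in Wnt (22.2% lower, near the share of all genes), and 5 rose and 1 fell in Shh. Of 12 neuron and precursor markers, 3 rose and 3 fell in Wnt (25% lower, also near that share), and 1 fell in Shh. Of 9 neutrophil and monocyte markers, 1 was lower in Wnt (11.1%, below that share), and 3 were higher and 1 lower in Shh.

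Shh array 3, the highest of its group for most members, had the lowest astrocyte (7.69), oligodendrocyte (6.59) and neuron and precursor (6.95) means of the Shh group. Shh array 7, the lowest for most members, had the highest neuron and precursor mean (8.43) and the lowest endothelial mean (11.42).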
